A study of Homo sapiens with 12 samples.

Results

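ONECUT1, GATA6 and MIXL1 encode transcription factors that act in the formation of the endoderm and of the organs derived from it. They were chosen by name, with their values on these arrays already known, and all 3 were measured among 14884 genes, each by 1 probe set. Their levels and differences are therefore given as a description, with no test. Gene expression was measured on 12 Affymetrix arrays of HepG2, an established human liver tumour line in which 1 allele of the β-catenin gene lacks exon 3, so that a truncated, stable protein is made beside the full-length protein. The cells of every group carry this deletion, and they were sampled at 120 h after a control siRNA (siCtrl), an siRNA against the wild-type form (sißCat-WT), against the mutated form (sißCat-mut) or against β-catenin of both forms (sißCat-both), with 3 arrays in each group. By its labels, the design compares the loss of the wild-type form with that of the mutated form. HepG2 is a single tumour line. The labels give triplicates without saying whether these were independent cultures, so the p-values given for other genes rest on a spread between samples that may be technical.

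β-catenin joins cadherins to the cytoskeleton at cell junctions and, in the nucleus, serves as the co-activator of TCF/LEF factors in Wnt signalling. During gastrulation Wnt and Nodal signals together induce MIXL1, a paired-type homeobox factor of the primitive streak from which endoderm and mesoderm arise. GATA6, a zinc-finger factor, acts in extraembryonic and definitive endoderm and later in the liver and pancreas. ONECUT1, also called HNF-6, is a cut-homeodomain factor of hepatocytes, bile ducts and the pancreas that controls liver genes of glucose metabolism and plasma proteins.

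The values are log2 intensities from RMA, in which a difference of 1 is a doubling of signal. The medians over all probe sets lay between 4.71 and 4.79 on the 12 arrays, and the 3 genes lay well above them in every group. Replicate arrays correlated at 0.994 to 0.997 across genes, and 0 pairs of arrays were identical. The knockdown itself was not checked, since the targeted gene was not analysed here, and the groups rest on the labels. Of 8 hepatocyte markers 7 were measured, and their mean level was 11.84 to 12.72 on the 12 arrays. All 5 markers of pluripotent stem cells were measured, and their mean was 3.93 to 4.22, below the array medians. Among them POU5F1 lay above these medians, at 5.79 after siCtrl. The 2 measured of 7 fibroblast markers averaged 2.99 to 3.22, and the 4 measured of 6 endothelial markers 4.54 to 4.88. The 3 measured of 6 leukocyte markers averaged 9.23 to 9.57, a mean in which CD68 and LYZ were at 10.03 and 12.72 after siCtrl, and CD14 at 5.47. The 4 measured of 5 cholangiocyte markers averaged 8.17 to 8.77, with KRT19 at 9.06 and SOX9 at 10.76 after siCtrl.

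The promoters of the 3 genes are shown because TCF/LEF factors, the DNA-binding partners of β-catenin, and FOXH1, the partner of Nodal signalling, recognise short DNA words that can be looked for in them. Each sequence holds the 250 bases before the annotated start of the gene, in RefSeq's GRCh38.p14, read 5′ to 3′ on the strand of the gene, and all 3 genes were found in the promoter table. The ONECUT1 promoter is chr15:52790337-52790586 (minus strand), the GATA6 promoter chr18:22169339-22169588 (plus strand) and the MIXL1 promoter chr1:226223414-226223663 (plus strand). Capitals mark the matches to the 7 words searched.
ONECUT1: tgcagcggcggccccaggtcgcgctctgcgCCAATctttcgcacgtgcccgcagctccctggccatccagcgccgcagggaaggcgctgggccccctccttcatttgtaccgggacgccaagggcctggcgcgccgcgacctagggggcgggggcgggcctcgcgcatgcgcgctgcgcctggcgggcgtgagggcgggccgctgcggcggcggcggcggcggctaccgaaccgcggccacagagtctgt
GATA6: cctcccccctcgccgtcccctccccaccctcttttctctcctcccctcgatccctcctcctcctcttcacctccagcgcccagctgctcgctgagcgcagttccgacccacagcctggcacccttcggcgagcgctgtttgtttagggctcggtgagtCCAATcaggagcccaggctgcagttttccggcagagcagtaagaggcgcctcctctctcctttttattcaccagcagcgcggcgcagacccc
MIXL1: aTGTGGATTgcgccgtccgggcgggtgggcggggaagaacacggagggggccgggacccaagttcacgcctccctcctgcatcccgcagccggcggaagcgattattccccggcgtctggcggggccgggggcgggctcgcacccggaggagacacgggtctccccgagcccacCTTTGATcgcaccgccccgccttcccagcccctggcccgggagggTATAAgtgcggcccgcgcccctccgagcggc

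The MIXL1 promoter held the TCF/LEF word CTTTGAT from 76 to 70 bases before the start, on the strand of the gene. On either strand this word was found in 2.26% of all 35116 promoters of the same length. The MIXL1 promoter also held the FOXH1 word TGTGGATT, 249 to 242 bases before the start, which 0.709% of all promoters hold, and a TATAA word from 31 to 27 bases before the start (18.9% of all promoters). The promoters of ONECUT1 and GATA6 held neither the TCF/LEF nor the FOXH1 word in this window. Each held 1 CCAAT word, at 220 to 216 bases before the start of ONECUT1 and at 92 to 88 bases before that of GATA6, and 32.0% of all promoters hold this word. The GATA word AGATAA, the FOXA word TGTTTAC and the ONECUT word ATTGAT were in none of the 3 windows, and are in 9.17%, 2.98% and 5.58% of all promoters. All words were searched on both strands, and the matches did not overlap. The windows were rich in G and C, at 76.8% for ONECUT1, 64.4% for GATA6 and 74.0% for MIXL1, beside a median of 58.0% over all promoters. A match is a run of letters and does not show that a factor binds there.

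ONECUT1 was high after both siRNAs that target the mutated form, and stood near its control level after sißCat-WT. Its log2 level was 8.75, 8.79 and 8.88 on the siCtrl arrays and 8.95, 8.80 and 8.96 on the sißCat-WT arrays. It was 10.65, 10.57 and 10.59 after sißCat-mut and 10.85, 10.97 and 11.04 after sißCat-both. The siCtrl and sißCat-WT arrays overlapped, and all 6 of them lay far below the 6 arrays of the other groups, which did not overlap with each other.

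The order of the ONECUT1 levels was sißCat-both, sißCat-mut, sißCat-WT and siCtrl, and the last pair did not differ beyond their spread. The log2 difference from siCtrl was 1.80 ± 0.08 (SE of limma's fit, n = 3 arrays per group) after sißCat-mut, a 3.48-fold higher signal, and 2.15 ± 0.08 after sißCat-both, 4.44-fold higher. After sißCat-WT it was 0.10 ± 0.08. Between the groups with the mutated form targeted, ONECUT1 was higher after sißCat-both by 0.35 ± 0.08. The sum of the log2 differences of the single knockdowns was 1.90, close to the 2.15 of sißCat-both, a departure from additivity of 0.25 ± 0.11. For each member this sum is a yardstick only, since the depth of each knockdown was not checked. The labels do not say whether sißCat-both joins the single siRNAs. Hepatocyte markers were higher in the same groups: 6 of the 7 measured passed the test upward after sißCat-mut and 7 of 7 after sißCat-both (12% and 15.5% of all genes were called higher), and the mean of the list ran from 12.01 to 12.08 on the siCtrl arrays, 12.65 to 12.72 after sißCat-mut and 12.61 to 12.63 after sißCat-both. Among markers of other cell types, SOX9 (-0.88 and -1.55), EPCAM (-0.27 and -0.38) and LYZ (-0.39 and -1.13) were called lower in both groups. EPCAM was also called lower by limma after sißCat-WT (-0.25, adjusted p = 0.0304). The cholangiocyte markers KRT19 (0.12 and -0.01) and KRT7 (0.16 and 0.14) were not called after sißCat-mut or sißCat-both. VWF (0.33 and 0.37), at 4.24 after siCtrl and so under the array medians, was called higher in both groups. The leukocyte markers went both ways. Against the fall of LYZ, limma called CD68 higher after sißCat-mut (0.48, adjusted p = 0.00343) and CD14 higher after sißCat-both (0.70, adjusted p = 0.000371). The part of these shifts in the ONECUT1 values was not tested. All samples are of the single line HepG2, so these markers were not read as shares of cell types. In bulk samples fewer cells that express a marker and less of its RNA per cell cannot be told apart.

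**Figure D1:**
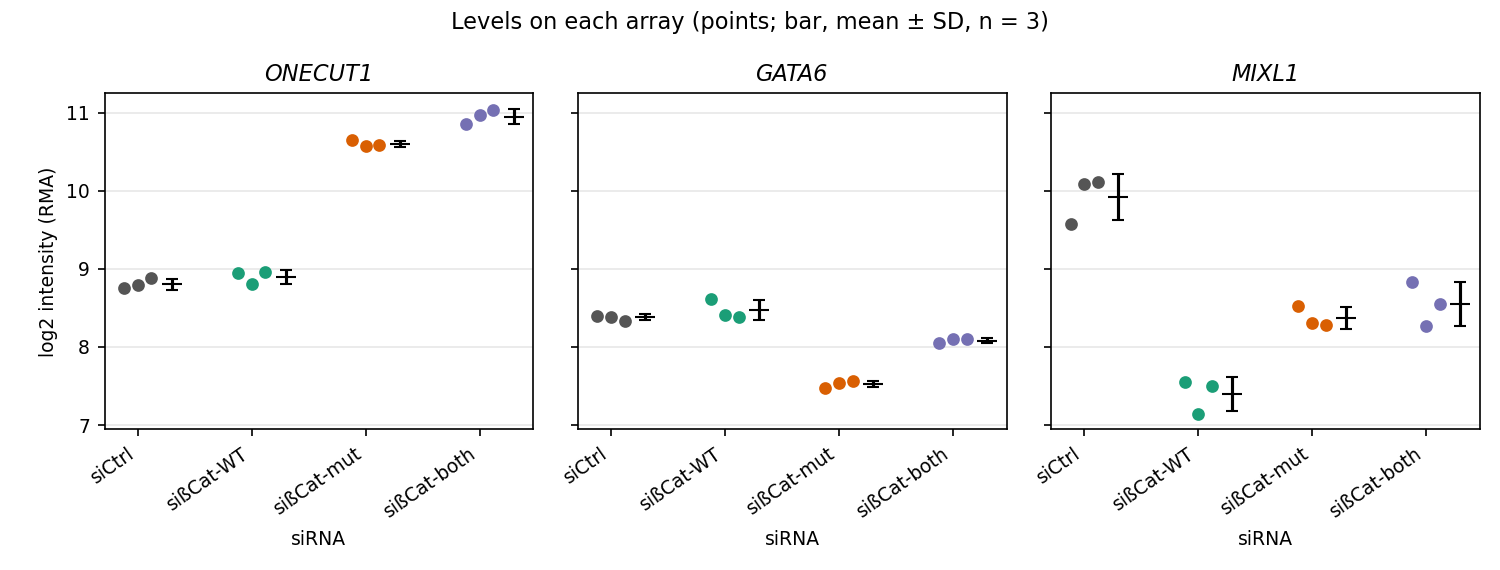
Log2 intensity (RMA) of ONECUT1, GATA6 and MIXL1 on each of the 12 arrays, by siRNA; coloured points are arrays in the order of their replicate numbers, and the black bars are the mean ± SD of the 3 arrays. ONECUT1 lies at 10.57 or above in the 2 groups with the mutated form targeted, GATA6 is lowest after sißCat-mut (7.48 to 7.56), and MIXL1 is lowest after sißCat-WT (7.14 to 7.55).

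GATA6 went the other way from ONECUT1 after sißCat-mut, and by less after sißCat-both. Its log2 level was 8.40, 8.39 and 8.33 on the siCtrl arrays and 8.62, 8.41 and 8.39 on the sißCat-WT arrays. It was 7.48, 7.54 and 7.56 after sißCat-mut and 8.05, 8.10 and 8.10 after sißCat-both. The sißCat-mut arrays lay below all others, the sißCat-both arrays lay between them and the rest, and the siCtrl and sißCat-WT arrays overlapped.

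The GATA6 difference from siCtrl was -0.85 ± 0.07 on the log2 scale after sißCat-mut (1.80-fold lower) and -0.29 ± 0.07 after sißCat-both (1.23-fold lower). After sißCat-WT it was 0.10 ± 0.07, and it was 0.02 without the first sißCat-WT array, the highest of the 12. GATA6 was thus higher with both forms targeted than with the mutated form alone, by 0.56 ± 0.07. The sum of the single differences was -0.75, and sißCat-both departed from it by 0.46 ± 0.10, towards the control level. GATA6 varied little between replicates, with a pooled SD within groups of 0.07, beside 0.078 for ONECUT1 and a median of 0.121 over all genes.

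MIXL1 was lower after every knockdown, and lowest after sißCat-WT. Its log2 level was 9.57, 10.09 and 10.11 on the siCtrl arrays and 7.55, 7.14 and 7.50 on the sißCat-WT arrays. It was 8.53, 8.31 and 8.28 after sißCat-mut and 8.83, 8.27 and 8.55 after sißCat-both. The sißCat-WT arrays lay below all others and the siCtrl arrays above all others, while the sißCat-mut and sißCat-both arrays overlapped.

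The MIXL1 difference from siCtrl was -2.52 ± 0.17 on the log2 scale after sißCat-WT (5.75-fold lower), -1.55 ± 0.17 after sißCat-mut (2.93-fold lower) and -1.37 ± 0.17 after sißCat-both (2.59-fold lower). MIXL1 was the 1 member of the 3 that stood away from its control level when the wild-type form alone was targeted. With both forms targeted it stood 1.15 ± 0.17 above its level after sißCat-WT, a 2.22-fold higher signal, and 0.18 ± 0.17 above that after sißCat-mut, a difference that was 0.04 without the first sißCat-both array and 0.32 without the second. The single differences summed to -4.08, and sißCat-both lay 2.70 ± 0.23 above this sum. With the depth of each knockdown not checked, the sum is a yardstick and not an expected value. MIXL1 also varied more between replicates than most genes, with a pooled SD of 0.244 that exceeded that of 95.8% of all genes. Its lowest siCtrl array was the first, at 9.57, and without that array the difference after sißCat-WT was -2.70.

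**Figure D2:**
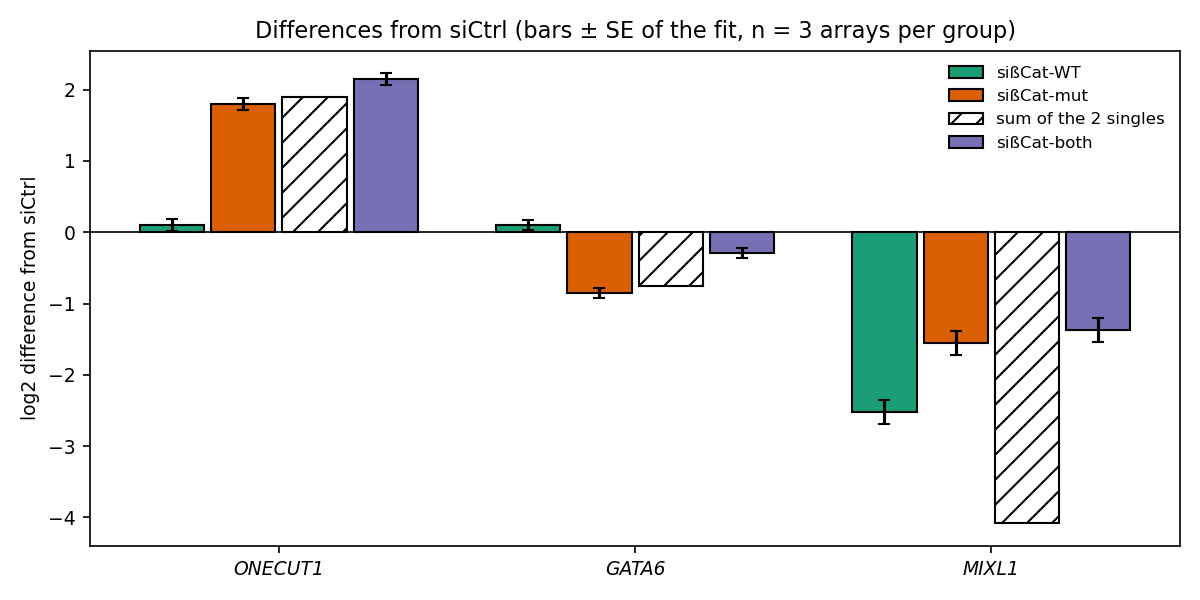
Log2 difference from siCtrl for each gene after sißCat-WT, sißCat-mut and sißCat-both (filled bars ± SE of limma's fit, n = 3 arrays per group), with the sum of the single differences as hatched bars, which carry no error. The hatched bar and the sißCat-both bar are close for ONECUT1 (1.90 and 2.15) and far apart for MIXL1 (-4.08 and -1.37).

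The genes whose values over the 12 arrays lay nearest to each member were found by the root mean square distance of log2 values, each taken from the gene's own siCtrl mean, among 12488 genes. This likeness is a description over 12 arrays that share 4 groups. Nearest to ONECUT1 was CREB3L3, a liver and gut transcription factor of fasting and lipid metabolism, at a distance of 0.142, or 10.1% of ONECUT1's own root mean square change. The CREB3L3 differences from siCtrl were 0.13, 1.63 and 2.31 after sißCat-WT, sißCat-mut and sißCat-both, beside 0.10, 1.80 and 2.15 for ONECUT1. The next were ITIH1, a heavy chain of the plasma inter-alpha-trypsin inhibitor, CPT1A, which brings fatty acids into mitochondria, the protocadherin gene FAT4 and IL1RAP, a subunit of the interleukin-1 receptor, at distances of 0.213 to 0.242.

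For GATA6 the nearest genes were RBM28 and KEAP1, at 0.114 and 0.124, followed by CEP290, TOPBP1 and BBS5, at 0.125 to 0.132. RBM28 is an RNA-binding protein of the nucleolus, KEAP1 marks the antioxidant factor NRF2 for degradation, CEP290 and BBS5 are proteins of the primary cilium, and TOPBP1 acts in DNA replication and its checkpoint. These distances come to 25.2% to 29.0% of GATA6's own change. After sißCat-mut the 5 genes stood at -0.69 to -0.85 on the log2 scale, and after sißCat-both at -0.20 to -0.39.

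None of the genes compared followed MIXL1 as closely. Its nearest was ASAH2, the neutral ceramidase, at a distance of 0.608, or 37.0% of MIXL1's own change, with differences of -1.54, -1.68 and -1.45 after sißCat-WT, sißCat-mut and sißCat-both. FREM1, an extracellular matrix protein, was next at 0.760 and was also lowest after sißCat-WT (-1.51, -0.91 and -0.53). GPX2, a glutathione peroxidase, followed at 0.770, the tetraspanin gene TSPAN8 at 0.911 and GREB1, known as an oestrogen response gene, at 0.913. These last genes were lower after the siRNAs against the mutated form than after sißCat-WT.

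**Figure D3:**
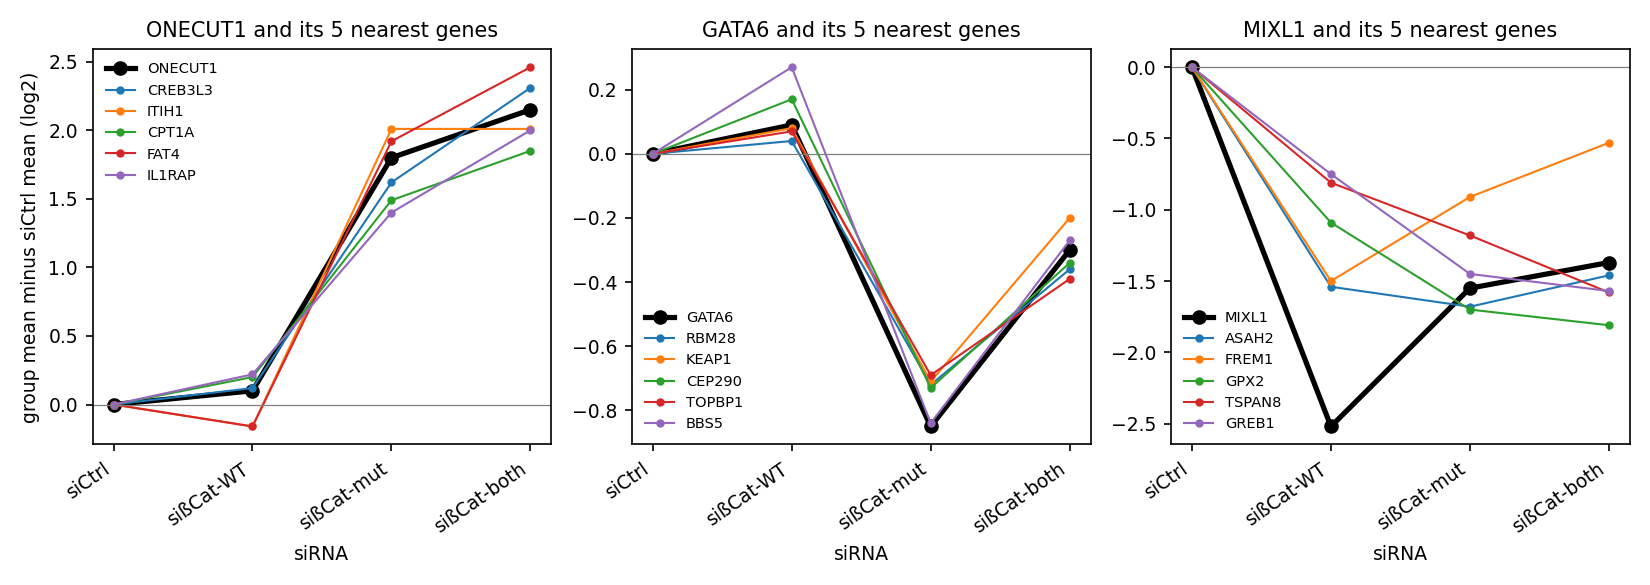
Group mean minus siCtrl mean (log2) for each member (black) and its 5 nearest genes (coloured) in the 4 siRNA groups; lines join the group means to guide the eye. The genes nearest to ONECUT1 and GATA6 run close to them, while none of the 5 nearest to MIXL1 reaches its -2.52 after sißCat-WT.

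The genes around the members were drawn from 6 lists of 117 related genes, of which 74 were measured, 12 of them on more than 1 list. These genes were tested with limma over all 14884 genes, and a gene was called at a Benjamini-Hochberg adjusted p under 0.05. After sißCat-WT 10 of the 74 were called (13.5%, beside 10.2% of all genes), 7 higher and 3 lower, while 5.2% of all genes were called higher and 4.97% lower. After sißCat-mut 26 were called (35.1%, beside 25.6% of all genes), 18 higher and 8 lower, beside 12% and 13.6% of all genes. After sißCat-both 25 were called (33.8%, beside 33.6% of all genes), 20 higher and 5 lower, beside 15.5% and 18.1%. The 3 comparisons share the siCtrl arrays.

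Among direct relatives of the members, the paralogue ONECUT2 rose after sißCat-mut, by 0.45 ± 0.08 (adjusted p = 0.000981), and after sißCat-both, by 0.27 ± 0.08 (adjusted p = 0.0196). Its levels ran from 8.12 to 8.25 on the siCtrl arrays and from 8.51 to 8.72 after sißCat-mut. The call after sißCat-both ended without the second siCtrl array (0.23) or the first sißCat-both array (0.21). GATA4, the relative of GATA6 that shares its role in the endoderm and heart, rose by 0.37 ± 0.08 after each of sißCat-mut and sißCat-both (adjusted p = 0.00369 and 0.0024), from 5.92 to 6.29, in the groups where GATA6 stood lower. GATA1, GATA2, GATA3 and GATA5 were not called in any of the 3 comparisons. Among cut and paired-type homeobox genes CUX2 (0.30, adjusted p = 0.0463) was called higher and PITX1 (-0.28, adjusted p = 0.035) lower after sißCat-mut, and ALX1 lower after sißCat-both (-0.33, adjusted p = 0.0114), with CUX2 and ALX1 at 4.52 and 4.23 after siCtrl, under the array medians. The CUX2 call was lost in 13 of 21 alternatives, the PITX1 call without any 1 siCtrl array or sißCat-mut array 1 or 3, and the ALX1 call without the third siCtrl array. Of 23 relatives measured 4 were called after sißCat-mut and 3 after sißCat-both, or 17.4% and 13.0%, both under the shares of all genes. After sißCat-WT limma called 0, with 3 at an unadjusted p under 0.05. The median difference of the list was 0.05 after sißCat-mut and 0.02 after sißCat-both, beside 0.011 and -0.006 over all genes. The count after sißCat-mut was 2 without any 1 of the siCtrl arrays, without the first sißCat-mut array, or without the first arrays of sißCat-mut and sißCat-both together. The count after sißCat-both was 5 without the second sißCat-both array.

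The 21 measured factors of endoderm and mesendoderm were called at shares near or under those of all genes: 9.52% beside 10.2% after sißCat-WT, 23.8% beside 25.6% after sißCat-mut and 9.52% beside 33.6% after sißCat-both. After sißCat-mut 3 rose (FOXA3 by 0.46, FOXA1 by 0.40 and GATA4) and 2 fell (SP5 by 2.35 and TBX3 by 0.37), and the list's median difference was 0.04. FOXA1 and FOXA3 are forkhead factors that open liver chromatin, SP5 is a zinc-finger target of Wnt signalling and TBX3 a T-box factor of early liver growth. After sißCat-both 1 rose, GATA4, and 1 fell, SP5, by 2.56 ± 0.21 (adjusted p = 8.36e-07), and the count was 4 without the third sißCat-both array or without the first arrays of sißCat-mut and sißCat-both together. After sißCat-WT 2 rose, TBX3 by 0.52 ± 0.09 (adjusted p = 0.00196) and KLF5 by 0.37 ± 0.11 (adjusted p = 0.0491). KLF5 lost its call in 13 of 22 alternatives, including the removal of any 1 siCtrl array but the third. SOX17, GSC, EOMES and LHX1, which act beside MIXL1 in the gastrula, were called in 0 of the 3 comparisons by limma. Their siCtrl levels were 6.0, 5.51, 4.82 and 5.11, above the array medians.

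Hepatocyte transcription factors, the class to which ONECUT1 belongs, were mostly higher after sißCat-mut. Of 11 measured of the 23 listed, 6 rose and 1 fell (63.6% called, beside 25.6% of all genes, with a median difference of 0.26). CREB3L3 rose by 1.63 ± 0.07 (adjusted p = 1.21e-08) and PPARA, the nuclear receptor of fatty acid oxidation, by 0.89 ± 0.10 (adjusted p = 2.09e-05), with FOXA3, ONECUT2, FOXA1 and PROX1 (0.26) behind them. After sißCat-both 4 rose and 0 fell (36.4%, beside 33.6%), led by CREB3L3 at 2.31 ± 0.07 and PPARA at 1.39 ± 0.10 (adjusted p = 2.7e-10 and 2.39e-07), with PROX1 and ONECUT2 at 0.27 each and a median of 0.11. After sißCat-WT (18.2%, beside 10.2%) 1 rose, TBX3, and 1 fell, PPARA, by 0.60 ± 0.10 (adjusted p = 0.00174), and the median was -0.09. FOXA2, which acts upstream of many liver genes, had differences of -0.09, -0.01 and -0.14 that did not pass the test.

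Genes that ONECUT1 is known to control in liver could be followed for 5 of the 12 listed. The list gives no direction of control, so a rise is not read as a response to ONECUT1. After each of sißCat-mut and sißCat-both 4 were called higher (80%), beside 12% and 15.5% of all genes called higher. TTR, the thyroxine carrier of plasma, rose by 1.45 ± 0.07 after sißCat-mut and by 0.91 ± 0.07 after sißCat-both (adjusted p = 1.35e-08 and 3.06e-07). Its levels were 11.69, 11.63 and 11.78 on the siCtrl arrays, 13.14, 13.09 and 13.21 after sißCat-mut and 12.63, 12.62 and 12.58 after sißCat-both, so TTR was higher after sißCat-mut, where ONECUT1 was the lower of its 2 raised groups (sißCat-both minus sißCat-mut -0.54 ± 0.07, adjusted p = 8.41e-05). PCK1, an enzyme of gluconeogenesis, rose by 1.57 ± 0.12 and 1.36 ± 0.12 with a mean of 4.81 on the siCtrl arrays, close to their medians. TAT, which degrades tyrosine, rose by 1.09 ± 0.18 and 1.40 ± 0.18 (adjusted p = 0.000578 and 4.47e-05). AFP, the fetal plasma protein, rose by 0.27 ± 0.07 and 0.21 ± 0.07, calls that ended in 5 and 8 of 22 alternatives, among them the removal of siCtrl array 1 or 2 for either, of sißCat-mut array 1 or 3 for the first, and of siCtrl array 3 or sißCat-both array 2 or 3 for the second. FOXA2 was the member of this list that did not pass. After sißCat-WT limma called 0 of the 5, beside 10.2% of all genes. At an unadjusted p under 0.05 there were 3, and the median difference was -0.17. TTR and AFP also belong to the hepatocyte markers. With a trended prior 2 were called after sißCat-WT, and 1 without the third sißCat-WT array.

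The measured genes tied to GATA4 and GATA6 did not move in 1 direction. HNF4A, DAB2 and the laminin and collagen genes of this list were not analysed here. Of 9 measured of 16 listed, 3 rose and 2 fell after sißCat-mut (55.6% called, beside 25.6% of all genes, with a median of 0.09). BMP4, a growth factor that specifies liver, fell by 1.51 ± 0.10 (adjusted p = 1.98e-07), and HAMP, which encodes the iron hormone hepcidin, fell by 0.69 ± 0.12 (adjusted p = 0.000615). EPO, the erythropoietin gene, rose by 1.33 ± 0.13, VIL1, the actin-bundling villin, by 0.72 ± 0.07, and F10, a coagulation factor, by 0.69 ± 0.11. After sißCat-both (44.4%, beside 33.6%) 3 rose, HAMP by 1.75 ± 0.12 (adjusted p = 1.3e-07), F10 by 0.48 and the natriuretic peptide gene NPPB by 0.33, and BMP4 fell by 1.37 ± 0.10. After sißCat-WT (22.2%, beside 10.2%) EPO fell by 1.11 ± 0.13 and VIL1 by 0.51 ± 0.07 (adjusted p = 0.000163 and 0.000576), where GATA6 stood near its control level.

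The Nodal and activin pathway, which induces MIXL1 in the embryo, was represented by 18 of 29 listed genes. Its activin receptors and inhibin chains were not analysed here. NODAL itself had a siCtrl level of 3.98, under the array medians, and differences of -0.05, 0.14 and 0.01 that did not pass the test. FOXH1, a DNA-binding factor of the pathway, had differences of -0.05, 0.09 and -0.07. After sißCat-WT, where MIXL1 was lowest, 5 genes rose and 0 fell (27.8% called, beside 10.2% of all genes; median 0.13 beside 0.005). SKIL, a repressor of SMAD complexes that is itself induced by them, rose by 0.90 ± 0.12 (adjusted p = 0.000293), and the inhibitory SMAD7 by 0.65 ± 0.18 (adjusted p = 0.0368). TGIF1, a homeobox co-repressor of SMAD2, rose by 0.60 ± 0.10 (adjusted p = 0.00177), FSTL3, which binds activin, by 0.56 ± 0.14 (adjusted p = 0.0176), and FURIN, which cleaves the Nodal precursor, by 0.47 ± 0.10 (adjusted p = 0.00648). The count was 3 without siCtrl array 1 or 2 and without sißCat-WT array 2 or 3, and SMAD7 and FSTL3 lost their calls in each of these fits. SMAD7 levels climbed with the replicate number, at 6.73, 7.07 and 7.26 after siCtrl and 7.40, 7.74 and 7.87 after sißCat-WT. The main fit does not use this number, so that shared climb counts as spread in the SE of SMAD7.

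After sißCat-mut the pathway genes went both ways, 3 higher and 3 lower of 18 (33.3%, beside 25.6% of all genes; median 0.07). FURIN rose by 0.72 ± 0.10, PCSK6, a second protease of the Nodal precursor, by 0.62 ± 0.08 and the activin binder FST by 0.50 ± 0.14 (adjusted p = 0.0143, a call lost without siCtrl array 1 or sißCat-mut array 2 or 3), while FSTL3 fell by 0.87 ± 0.14, SKI by 0.46 ± 0.08 and TGIF1 by 0.43 ± 0.10. After sißCat-both 8 rose and 2 fell (55.6%, beside 33.6% of all genes; median 0.15), and the count was 6 without the first siCtrl array. FURIN rose by 1.32 ± 0.10 (adjusted p = 2.56e-07), SKIL by 0.92 ± 0.12 (adjusted p = 3.49e-05) and SMAD7 by 0.76 ± 0.18 (adjusted p = 0.00441). SMAD4, the common partner of the signalling SMADs, rose by 0.76 ± 0.07 (adjusted p = 1.34e-06). Its level was 10.02 ± 0.03 after siCtrl (SD, n = 3), 10.09 ± 0.04 after sißCat-WT, 10.07 ± 0.08 after sißCat-mut and 10.78 ± 0.02 after sißCat-both, where every array (10.76, 10.80 and 10.77) lay above the other 9. The direct difference of SMAD4 from sißCat-mut was 0.71 ± 0.07 (adjusted p = 7.84e-06) and from sißCat-WT 0.69 ± 0.07 (adjusted p = 2.2e-06). TGIF1 and GDF1, a partner of Nodal, were the genes that fell, by 0.64 ± 0.10 and 0.43 ± 0.13, the latter with a call lost without siCtrl array 1 or sißCat-both array 1 or 3.

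**Figure D4:**
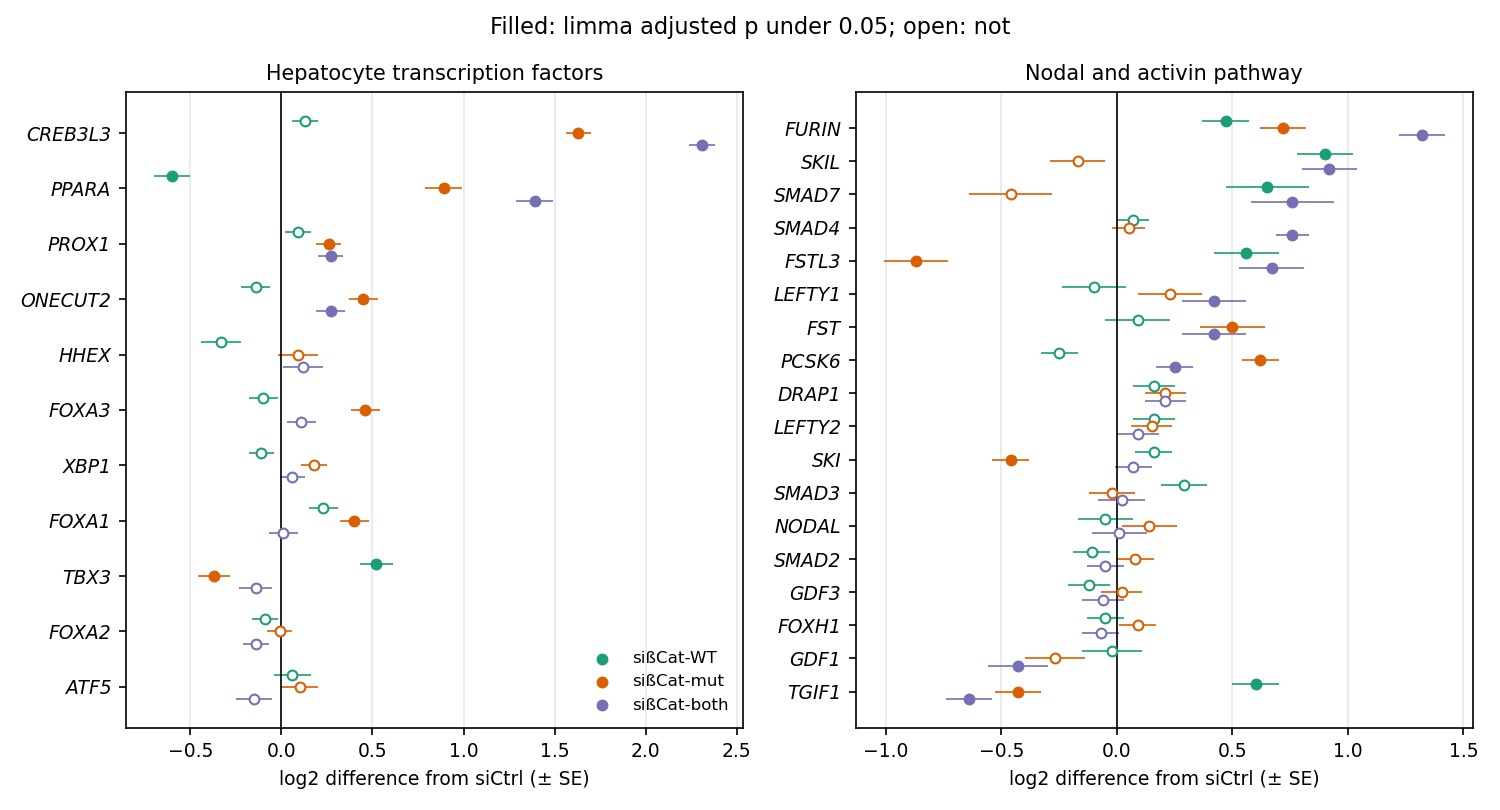
Log2 difference from siCtrl (± SE of limma's fit, n = 3 arrays per group) of the measured hepatocyte transcription factors (left) and Nodal and activin pathway genes (right), for each knockdown; filled points passed an adjusted p under 0.05 and open points did not. CREB3L3 and PPARA lie farthest to the right among hepatocyte factors after sißCat-both (2.31 and 1.39), and SKIL lies near 0.9 after sißCat-WT and sißCat-both but at -0.17 after sißCat-mut.

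The nearest measured protein-coding gene on each side of a member on its chromosome was taken from RefSeq's gene order, a comparison added after other values had been seen. WDR72, next to ONECUT1, rose by 0.88 ± 0.13 after sißCat-mut and 1.70 ± 0.13 after sißCat-both (adjusted p = 0.000254 and 5.11e-07), and fell by 0.53 ± 0.13 after sißCat-WT (adjusted p = 0.0228), a call lost without any 1 siCtrl array or sißCat-WT array 2 or 3. On the other side MYO5C, a myosin gene beyond 3 coding genes that were not analysed here, fell after sißCat-both by 0.57 ± 0.08 (adjusted p = 5.17e-05). LIN9, next to MIXL1 and part of a complex that controls cell cycle genes, fell by 0.28 ± 0.07, 0.59 ± 0.07 and 0.59 ± 0.07 after sißCat-WT, sißCat-mut and sißCat-both (adjusted p = 0.0245, 4.4e-05 and 2.61e-05), and the first of these calls was lost without any 1 siCtrl array or sißCat-WT array 2 or 3. ACBD3, on the other side of MIXL1, rose by 0.35 ± 0.08 after sißCat-mut and 0.37 ± 0.08 after sißCat-both (adjusted p = 0.00467 and 0.00263). Beside GATA6, MIB1, a ligase of Notch signalling, was at -0.20 after sißCat-mut and 0.23 after sißCat-both (adjusted p = 0.041 and 0.0163). The first of these calls was lost without any 1 siCtrl or sißCat-WT array or sißCat-mut array 1 or 2, and the other without siCtrl array 1 or sißCat-both array 3. CTAGE1 was called in 0 of the 3 comparisons by limma, with differences of -0.01, -0.10 and -0.07.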

How the data were processed

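The deposited table holds a log2 intensity for each of 53617 probe sets on 12 arrays. Per the submitters' processing notes, the authors summarised the scans by RMA, using Affymetrix Expression Console 1.1. RMA equalises the arrays' distributions, so a shift shared by most genes would be lost, and compresses changes near the floor. The log2 scale was inferred from the range and near-equal distributions, and genes were not centred. The annotation build is not given in the sources used here. Groups and replicate numbers came from the titles.

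Of the probe sets 16098 had 1 gene symbol, 0 several and 37519 none. All 16098 gene identifiers matched the RefSeq table. Where several probe sets shared a gene (779 genes), the brightest on average stood for it, leaving 14884 genes with no filter on dim ones. limma 3.58.1 in R 4.3.3 fitted a mean for each of the 4 groups (lmFit and eBayes; 8 residual degrees of freedom, a median of 13.3 with the prior), two-sided, with Benjamini-Hochberg adjustment over all genes. The members and the gene lists, written from general knowledge, were chosen with earlier results of these data known. Named list genes were the 4 largest called differences per list and comparison. Likeness left out uncharacterised and small RNA symbols and took 5 genes per member. The fit was tested on simulated data first.

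Same-numbered arrays of sißCat-WT and sißCat-both deviated together weakly (r = 0.115, 0.155 and 0.134 across genes). Those of the other pairs of groups had r from -0.047 to 0.189. The numbers were taken as a possible pairing, which no label states. The main fit did not use it, and a block for the replicate number was an alternative. Alternatives were renewed quantile normalization, median centring, leaving out genes under the 40th percentile, the mean of probe sets, trended and robust priors, a fit of only the groups compared, array weights, a block for the replicate number, and leaving out arrays. Plots used Python 3.11.15 and matplotlib 3.10.9.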

Additional observations from a re-analysis of the deposited data

Results flagged for a closer look

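In 10 cases a related gene was called in opposite directions against siCtrl after a pair of knockdowns and the direct difference between them passed limma's test (n = 3 arrays per group). EPO was higher after sißCat-mut than after sißCat-WT by 2.44 ± 0.13 on the log2 scale (SE, adjusted p = 1.57e-08), VIL1 by 1.23 ± 0.07 (adjusted p = 3.43e-08) and PPARA by 1.49 ± 0.10 (adjusted p = 1.11e-07). PPARA was also higher after sißCat-both than after sißCat-WT, by 1.99 ± 0.10 (adjusted p = 7.18e-09). TBX3 and TGIF1 had the opposite order, with sißCat-mut minus sißCat-WT at -0.89 ± 0.09 and -1.03 ± 0.10 (adjusted p = 4.1e-06 and 3.68e-06), and TGIF1 was at -1.25 ± 0.10 for sißCat-both minus sißCat-WT (adjusted p = 4.44e-07). FSTL3, the activin binder, was at -1.43 ± 0.14 for sißCat-mut minus sißCat-WT and at 1.54 ± 0.14 for sißCat-both minus sißCat-mut (adjusted p = 2.76e-06 and 4.92e-06). HAMP was higher after sißCat-both than after sißCat-mut by 2.44 ± 0.12 (adjusted p = 5.04e-08). In each case all 3 arrays of the higher group lay above all 3 of the lower group. The cases were chosen by these calls, so the small p-values and this separation follow in part from the choice. The share of all genes with such a pattern is not given, so the count of 10 is a description. With groups of 3 arrays, single outlying arrays were not looked for.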

How the results depend on the processing

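The log2 differences of ONECUT1, GATA6 and MIXL1 kept their sign in every alternative run. They moved by more than the spread between replicates only for GATA6 without the first sißCat-WT array. Several alternatives cannot move a member's difference: the priors, only the groups compared, the filter on dim genes, the mean of probe sets and the replicate block. Leaving out an array of a group not compared cannot move it either, so agreement there is no support. Leaving out each array in turn, GATA6 ranged from 0.02 to 0.14 for sißCat-WT minus siCtrl, from -0.99 to -0.87 for sißCat-mut minus sißCat-WT, from -0.43 to -0.32 for sißCat-both minus sißCat-WT and from 0.42 to 0.53 for the departure from additivity. Over the same fits MIXL1 ranged from -2.70 to -2.40 after sißCat-WT and ONECUT1 from 1.77 to 1.84 after sißCat-mut. The related genes called ranged from 7 to 11, 23 to 28 and 21 to 26 after sißCat-WT, sißCat-mut and sißCat-both when arrays were left out, and from 9 to 14, 23 to 30 and 23 to 27 under the other settings. With the replicate number as a block the counts were 12, 27 and 27. The members' differences were those of the fit without it, as they must be when each group holds each number once. For related genes called in at least 1 knockdown against siCtrl, the 126 called differences between any pair of groups were recomputed, and 105 passed in every alternative and 21 were lost in at least 1, with 0 reversed. Additivity was not run with only the groups compared, since it needs all 4. The 3 arrays of a group limit the precision.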
